A study of Mus musculus with 2 samples.

Results

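The genes described here are the ligands, receptors and inhibitor of the epidermal growth factor (EGF) family in AML12 cells, 10 of the 35275 genes in the table. They comprise 6 ligand genes (Areg, Ereg, Btc, Hbegf, Tgfa and Egf), 3 receptor genes (Egfr, Erbb2 and Erbb3) and Errfi1, a feedback inhibitor of the receptors. The members were chosen with their ratios between senescent and control cells in view, so the ratios below are a description of the chosen genes and were not tested. AML12 is a non-transformed hepatocyte line, and the labels give its origin as the liver of male CD-1 mice of 3 months. As background, the line was derived from mice that carried a human TGF-alpha transgene driven by the mouse metallothionein-1 promoter. Control cells were untreated. Senescent cells had been exposed to hydrogen peroxide in serum-free medium on 6 days for 1 h each, first at 1 mM and then at 0.75 mM, and were left to recover for 23 h each time. Both were grown in DMEM:F12 with 10% fetal serum, insulin, transferrin, selenium and dexamethasone. RNA of 3 samples was pooled for each condition, and the pool was sequenced as 1 library per condition.

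The EGF family ligands are made as transmembrane precursors, and the soluble growth factor is released when proteases of the ADAM family cut it from the cell surface. The ligands bind EGFR, and some also bind ERBB4, which makes the receptors pair and phosphorylate each other. ERBB2 has no known soluble ligand of its own and acts as the partner of other receptors, and ERBB3 binds neuregulins and has little kinase activity. The activated receptors signal through RAS and ERK and through PI3K and AKT, and in the liver they are best known for driving the division of hepatocytes during regeneration.

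Reads counted on genes totalled 28021941 in control and 25738075 in senescent cells, and 17403 and 17592 genes had reads. Reads were scaled with the TMM method, whose factors were 1.04 and 0.964. A log2 ratio is the scaled senescent over the scaled control reads with a prior count of 1, and its 95% interval covers counting error only. A call of higher or lower required 10 or more reads summed over the libraries (14383 genes), a log2 ratio beyond 1.5 on either side and an interval that excluded 0. Since each condition had 1 library, the ratios have no replicate check and no p-values, and they compare the 2 libraries rather than the conditions. Of 10 hepatocyte markers, 2 were called lower and 0 higher. Alb fell from 32076 to 2917 reads (log2 ratio -3.23, interval -3.28 to -3.17) and Apoa1 from 2026 to 197 reads (-3.13). Krt8, Krt18 and Hnf4a had ratios between 0.14 and 0.82, whereas Cebpa was at -1.44 and Ttr at -0.91. Trf, with 26 and 17 reads, and Afp, with 75 and 65, were scarce in both libraries. Of the bile duct markers, Krt19 had 22885 and 19177 reads and Epcam had 0 and 1. Of 7 senescence markers none was called, beside 2.71% of all genes called higher and 5.6% lower. At these shares few calls or none would be seen in a list of this size. The 7 markers had log2 ratios from -1.32 to 0.90 with a median of -0.30, and 3 of them were above 0. Cdkn1a, the cell-cycle inhibitor p21, had 6182 control and 9869 senescent reads (0.90), whereas Cdkn2a, the p16 and p19 locus, had 437 and 149 reads (-1.32). Of 7 macrophage markers, with summed levels of 2.65 control and 6.29 senescent TMM-scaled CPM (counts normalized to library size), 2 were called higher (Ptprc and Csf1r) and 3 had no reads (Adgre1, C1qa and Clec4f). Of 8 stellate cell and fibroblast markers 7 had under 10 reads, with a summed level of 0.928 and 0.363 CPM, and Col1a1 went from 21 to 1 reads. All 5 endothelial markers had under 10 reads, with a summed level of 0.206 and 0.524 CPM. Their part in the results below was not tested.

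The genes of 3 ligands that rose, Areg, Ereg and Btc, lie in a cluster on chromosome 5. The promoters of Areg and Btc are shown because they stand at the start of the ligand genes with the largest ratios, and the promoter at the second start of Errfi1 is shown because it is the only other window searched among the members that holds the match found before Areg. Sequences are from RefSeq on GRCm38.p6, the reference of another mouse strain than CD-1, and give the 250 bases before the RefSeq start, 5′ to 3′ on the strand of the gene. Capitals mark the letters TGACGTCA, the cyclic AMP response element (CRE).
Areg, chr5:91139349-91139598, plus strand: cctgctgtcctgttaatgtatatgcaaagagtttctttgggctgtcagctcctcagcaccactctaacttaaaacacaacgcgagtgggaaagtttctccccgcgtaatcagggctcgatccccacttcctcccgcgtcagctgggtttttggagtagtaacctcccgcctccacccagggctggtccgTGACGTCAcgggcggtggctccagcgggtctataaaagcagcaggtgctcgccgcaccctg
Btc, chr5:91402995-91403244, minus strand: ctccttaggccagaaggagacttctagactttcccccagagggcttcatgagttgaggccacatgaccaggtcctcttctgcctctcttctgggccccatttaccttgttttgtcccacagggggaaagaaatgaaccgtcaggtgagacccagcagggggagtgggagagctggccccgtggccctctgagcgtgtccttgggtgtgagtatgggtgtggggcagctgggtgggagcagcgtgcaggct
Errfi1, second start, chr4:150854820-150855069, plus strand: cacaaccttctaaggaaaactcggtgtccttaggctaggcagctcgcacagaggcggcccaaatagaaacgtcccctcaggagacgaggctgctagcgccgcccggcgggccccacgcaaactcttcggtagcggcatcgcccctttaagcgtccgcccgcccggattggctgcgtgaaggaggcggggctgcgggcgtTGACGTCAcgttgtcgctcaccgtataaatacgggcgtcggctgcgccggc

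RefSeq entries were matched for 7 of the 10 members, so no window of Ereg, Hbegf or Erbb3 was searched. The windows of the 7 were searched on both strands for the CRE, the AP-1 letters TGANTCA and the TEAD letters GGAATG. No window held more than 1 match. In the Areg window a CRE match began 61 bases before the start, and in the second Errfi1 window it began 51 bases before the start. Of all 32851 promoters of the same length in the table, 508 (1.55%) held the CRE letters. The first Errfi1 window and the Erbb2 window each held a TEAD match, 65 and 88 bases before the start, and such a match was in 12.6% of all promoters. The windows of Btc, Tgfa, Egf and Egfr held none of these letters, and no member window held the AP-1 letters, which 6.75% of promoters held. These matches describe the letters in a window and were not tested as binding sites.

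Areg encodes amphiregulin, an EGFR ligand with a heparin-binding stretch. Areg (ENSMUSG00000029378, chr5:91139599-91148432, plus strand) had 113 control reads against 1629 senescent reads. The ratio of senescent to control was 16.8-fold, or 4.07 on the log2 scale (95% interval 3.80 to 4.37), and placed Areg at rank 27 of the 14383 genes from the highest. In bulk RNA, more cells with a transcript and more of it per cell cannot be told apart. Ereg encodes epiregulin, which binds EGFR and ERBB4. Ereg (ENSMUSG00000029377, chr5:91074622-91093646, plus strand) had 163 control and 980 senescent reads, 7.01-fold higher (log2 ratio 2.81, interval 2.58 to 3.07), and stood at rank 89. Btc encodes betacellulin, first known as a mitogen of insulin-producing beta cell tumors. Btc (ENSMUSG00000082361, chr5:91357261-91402994, minus strand) had 311 control and 3157 senescent reads, 11.9-fold higher (log2 ratio 3.57, interval 3.40 to 3.75), and stood at rank 44. Thus 3 of the 10 members were called higher and 0 were called lower. Of all genes with at least 10 reads, 2.71% were called higher and 5.6% lower. Nothing is read from the members' count against these shares, because the members were chosen on the same ratios.

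The ratios of these 3 ligands differed from each other by more than counting error, since no pair of their intervals overlapped, and the order was Areg, Btc and Ereg. Over the alternative scalings, prior counts and trend corrections, the log2 ratio of Areg lay between 3.96 and 4.22, that of Btc between 3.46 and 3.66 and that of Ereg between 2.70 and 2.87. No annotated gene that overlaps them is listed in this table.

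Tgfa, Hbegf and Egf were not called. Tgfa encodes TGF-alpha, an EGFR ligand of epithelial cells. Tgfa (ENSMUSG00000029999, chr6:86195223-86275719, plus strand) had 2974 control and 4947 senescent reads, a 1.95-fold ratio (log2 0.96, interval 0.90 to 1.03). The line's human transgene encodes the same growth factor, and reads from it that aligned to the mouse gene cannot be told apart from those of Tgfa. The mouse gene whose promoter drives that transgene, Mt1, had 15651 control and 7479 senescent reads (log2 ratio -0.84, interval -0.88 to -0.80) and was not called. Its neighbour Mt2, a metallothionein gene with a promoter of its own, had 13990 and 4492 reads (-1.41, interval -1.46 to -1.36) and among the scalings was called lower only with total counts, at -1.52. Hbegf encodes the heparin-binding EGF-like growth factor. Hbegf (ENSMUSG00000024486) had 897 control and 1164 senescent reads, a 1.52-fold ratio (log2 0.60, interval 0.48 to 0.73). Egf, which is known for its high expression in salivary gland and kidney, was near the limit of detection. Egf (ENSMUSG00000028017, chr3:129677565-129755316, minus strand) had 30 control and 14 senescent reads, and its log2 ratio of -0.83 has an interval of -1.90 to 0.09 that holds 0. With total-count scaling the interval of Egf was -2.01 to -0.02, so whether it holds 0 depends on the scaling.

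**Figure D1:**
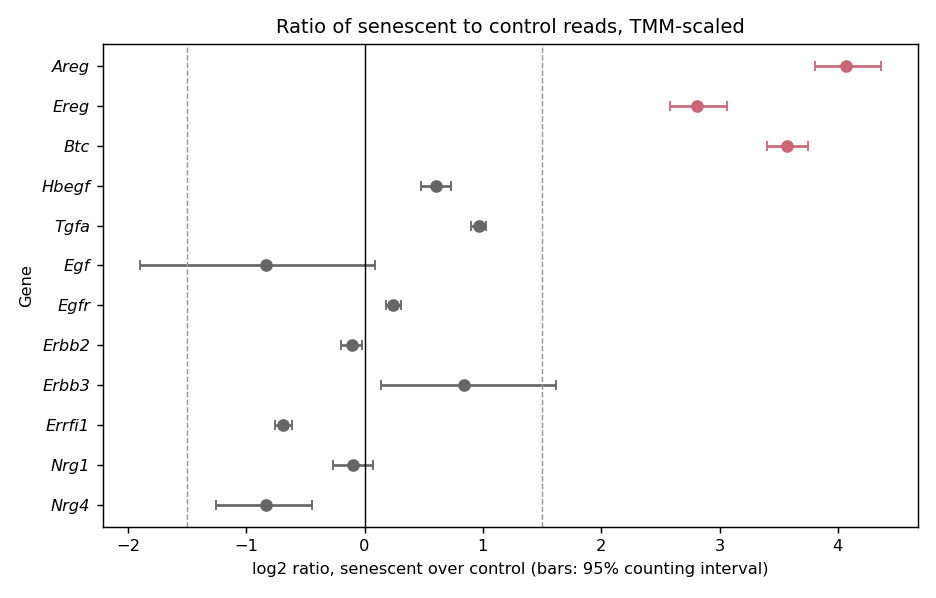
Log2 ratio of senescent over control reads (horizontal axis, TMM-scaled) for the 10 members and for the neuregulin genes Nrg1 and Nrg4. Points are ratios, bars are 95% counting intervals, dashed lines mark 1.5 in either direction, and the called genes (red) are Areg, Btc and Ereg, at 4.07, 3.57 and 2.81.

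Of the receptors, Egfr and Erbb2 differed little between the libraries. Egfr (ENSMUSG00000020122, chr11:16752203-16918158, plus strand), the receptor of the 6 ligands, had 4508 control and 4555 senescent reads and thus a log2 ratio of 0.24 (interval 0.18 to 0.30). Scaled by total counts, the ratio of Egfr was 0.14. Erbb2 (ENSMUSG00000062312, chr11:98412470-98437716, plus strand) had 2450 and 1938 reads, a log2 ratio of -0.11 (interval -0.20 to -0.02). Erbb3 (ENSMUSG00000018166, chr10:128567523-128589652, minus strand) had just 27 and 42 reads (log2 ratio 0.84, interval 0.14 to 1.62). None of the 3 receptor genes was called, and the ratio of Erbb3 has a wide interval because its counts are low. The use of strand in counting was not given in the sources used here, so reads of overlapping genes on opposite strands may be split between them. Egfros, antisense within Egfr, had 26 and 32 reads, and Mien1, which overlaps the end of Erbb2, had 1570 and 1159 reads.

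Errfi1 encodes MIG6, a cytoplasmic protein that binds the kinase domain of active ErbB receptors and blocks it, and its gene is known to be switched on by EGFR signaling itself. Errfi1 (ENSMUSG00000028967, chr4:150853919-150868892, plus strand) had 4740 control and 2512 senescent reads. Its log2 ratio was -0.69 (interval -0.76 to -0.62), or 1.61-fold higher in the control library, and it was not called. Among the members with at least 100 reads, Errfi1 and Erbb2 were those with ratios below 0, and the sign of both held under every scaling.

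Levels of different genes were compared per length, as TMM-scaled CPM per kilobase of merged exons (RPKM), with exact 95% Poisson intervals that cover counting error only. In control cells Errfi1 had the highest level of the members, 45.5 RPKM. Erbb2, Tgfa and Egfr followed at 16.2, 15.8 and 13.7 RPKM, and the intervals of Erbb2 and Tgfa overlapped. Hbegf had 6.38 RPKM. The 3 ligands of the cluster were low, with Areg at 3.20 RPKM (2.64 to 3.85), Btc at 2.37 (2.11 to 2.64) and Ereg at 1.36 (1.16 to 1.58), and the intervals of Areg and Btc met at their ends. Erbb3 at 0.154 RPKM and Egf at 0.0915 RPKM were the lowest, and their intervals overlapped.

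In senescent cells the order of the levels was different. Areg had the highest level of all members, 54.1 RPKM (51.5 to 56.7), above Tgfa at 30.7 RPKM. Errfi1 at 28.3 and Btc at 28.2 RPKM had overlapping intervals. Egfr had 16.2 and Erbb2 14.998 RPKM, in the opposite order to that of the control library. Hbegf at 9.71 and Ereg at 9.57 RPKM had overlapping intervals, and Erbb3 and Egf were again the lowest at 0.281 and 0.0501 RPKM. The level of Areg went from 0.203 to 1.76 times that of Tgfa, and from 0.234 to 3.33 times that of Egfr. The level of Btc went from 0.150 to 0.916 times that of Tgfa.

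**Figure D2:**
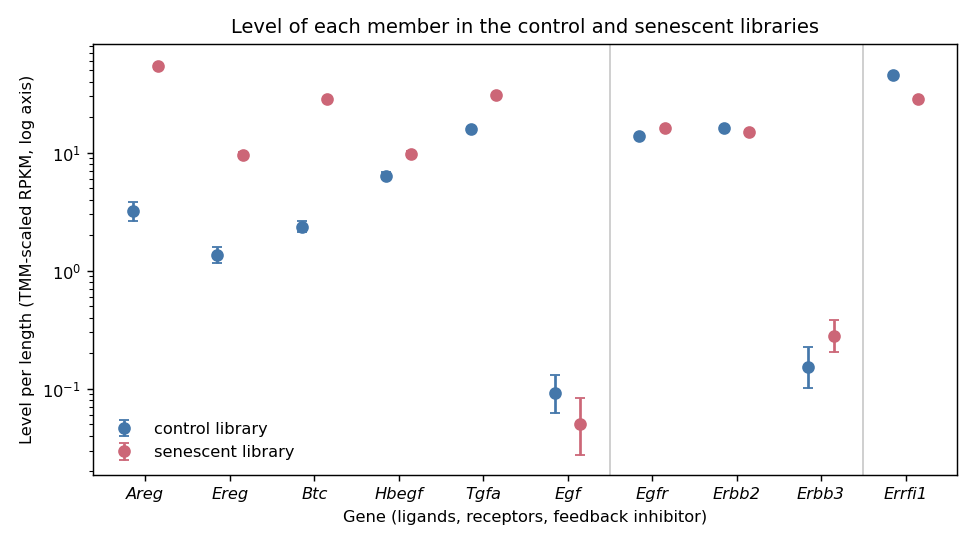
Level of each member per length (vertical axis, TMM-scaled RPKM on a log scale) in the control library (blue) and the senescent library (red), with exact 95% Poisson intervals. Vertical lines separate ligands, receptors and the feedback inhibitor, and the widest gaps between the libraries are those of Areg, 3.20 against 54.1, and Btc, 2.37 against 28.2.

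Summed over the 6 ligand genes, the per-length level was 29.2 RPKM in the control library and 132 RPKM in the senescent library, a 4.54-fold ratio. Summed over the 3 receptor genes, it was 30.0 and 31.5 RPKM, a ratio of 1.05. The make-up of the ligand sum also differed. In control cells Tgfa made up 54.1% of the ligand sum, Hbegf 21.9%, Areg 11.0%, Btc 8.12%, Ereg 4.66% and Egf 0.314%. In senescent cells Areg made up 40.9%, Tgfa 23.2%, Btc 21.3%, Hbegf 7.34%, Ereg 7.24% and Egf 0.0378%. Hbegf therefore took a smaller share in senescent cells although its own ratio was above 0. Within the receptor sum, Egfr went from 45.6% to 51.5%, Erbb2 from 53.9% to 47.6% and Erbb3 from 0.514% to 0.894%. These shares depend on the gene length used. With the longest transcript in place of the merged exons, the ligand sum was 40.7 and 156 RPKM, a 3.83-fold ratio, and Tgfa made up 55.5% of it in control and 28.3% in senescent cells. Areg remained the highest of the 6 ligand genes in senescent cells with that length, at 34.7% of the sum. The line's human TGF-alpha transgene enters these sums and shares only as far as its reads were counted on mouse Tgfa. How far they were is not known.

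**Figure D3:**
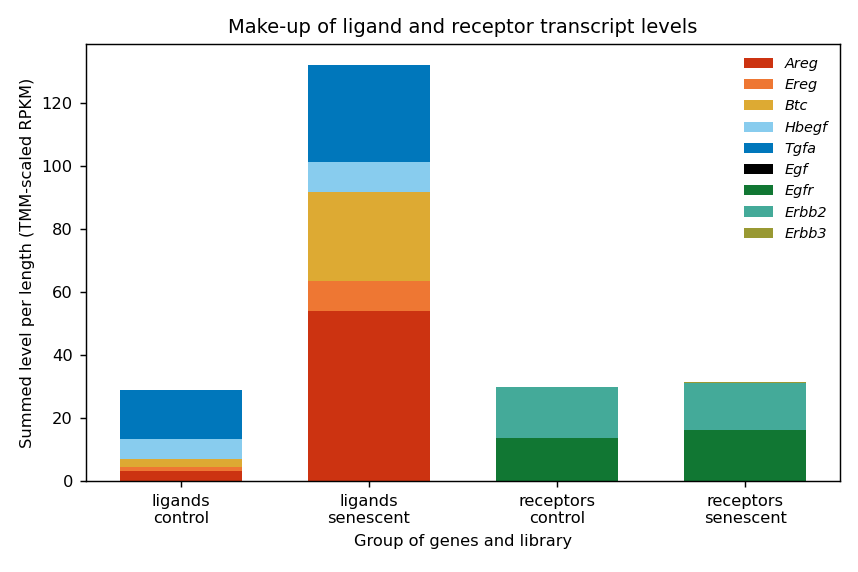
Summed per-length level (vertical axis, TMM-scaled RPKM) of the 6 ligand genes and of the 3 receptor genes in each library, with each gene as a segment of its bar. The ligand bar is 29.2 in the control library, most of it Tgfa, and 132 in the senescent library, where Areg is the largest segment, while the receptor bars are 30.0 and 31.5.

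Areg, Ereg and Btc lie within 376 kb on chromosome 5 together with Epgn, the gene of the EGFR ligand epigen. The starts of Areg and Ereg are 64.98 kb apart, and the 5′ end of Btc, which is on the opposite strand, lies 263 kb from the start of Areg. Epgn had 0 control and 5 senescent reads, and with under 10 reads it could not be called. Against a floor of 3 reads in the control library, its ratio was 1.95-fold. That value leaves out the counting error of the 5 senescent reads. The region within 500 kb of the ligand starts holds 18 genes of the table. Of the 12 with at least 10 reads, 3 were higher, 4 were lower and 5 were not called, beside shares of 2.71% higher and 5.6% lower over all genes. The 3 higher genes were Areg, Ereg and Btc, on whose ratios the region was chosen.

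The 4 lower genes encode CXC chemokines and lie on the Ereg side of the cluster. Cxcl5, a neutrophil chemoattractant, fell from 1318 to 148 reads (log2 ratio -2.92, interval -3.18 to -2.68). Cxcl1 fell from 2190 to 559 reads (-1.74, interval -1.88 to -1.61) and Cxcl2 from 203 to 21 reads (-2.99, interval -3.77 to -2.39). Ppbp had 16 control reads and 1 senescent read, below the floor of 3 reads (-2.92, interval -9.16 to -1.08). Mthfd2l, the nearest gene with at least 10 reads on that side, had 649 and 492 reads (-0.17, interval -0.34 to 0.00). On the other side of the ligands, Parm1 had 4014 and 4044 reads (0.24, interval 0.18 to 0.30). The neighbours Rassf6 (0.97), Cxcl3 (-1.31) and 5830473C10Rik (-1.32) were not called.

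**Figure D4:**
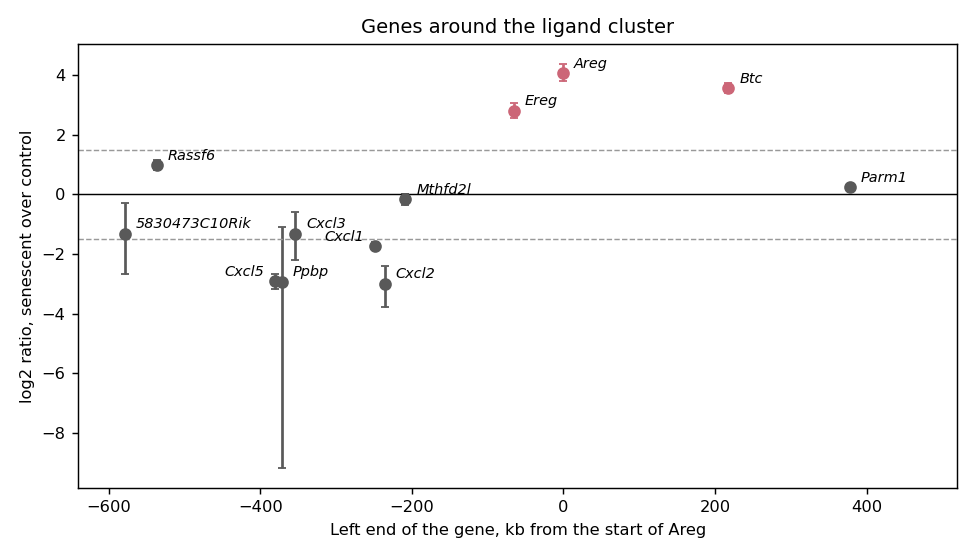
Log2 ratio of senescent over control (vertical axis, with 95% counting intervals) of the 12 genes with at least 10 reads around the ligand cluster, against the left end of the gene in kb from the start of Areg (horizontal axis). Dashed lines mark 1.5 in either direction, and Areg, Ereg and Btc (red) stand above the line while Cxcl5, Ppbp, Cxcl1 and Cxcl2 stand below it.

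The other genes of the ErbB family were low or were not called. Nrg1, which encodes neuregulin-1, a ligand of ERBB3 and ERBB4, had 630 and 502 reads (log2 ratio -0.10, interval -0.27 to 0.07). Nrg4, a neuregulin that binds ERBB4, had 160 and 76 reads (-0.84, interval -1.26 to -0.44). Erbb4 and Nrg3 had 0 reads in both libraries, which allows a level of up to 0.103 CPM (control) and 0.121 CPM (senescent), and Nrg2 had 2 and 0 reads. The receptor transcripts detected in these cells were therefore mainly Egfr and Erbb2.

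The genes around the family were read from lists of general knowledge, which were chosen with earlier results of these data known. The list of ligand shedding holds 14 genes, of which 12 had enough reads. None of these was called, beside 2.71% of all genes called higher and 5.6% lower, shares at which few calls or none would be seen in a list of this size. The list had a median log2 ratio of 0.14 beside -0.02 over all genes. Adam17, the main protease that releases amphiregulin, epiregulin and TGF-alpha, had 1752 control and 810 senescent reads (-0.88, interval -1.01 to -0.76). Adam10, the protease known to release betacellulin, had 6317 and 4752 reads (-0.18, interval -0.24 to -0.13). Adam8 had 674 and 1373 reads (1.25, interval 1.12 to 1.39). Rhbdf2, which encodes iRhom2, the partner that carries ADAM17 to the cell surface, had 1391 and 1239 reads (0.06, interval -0.05 to 0.17). The ligands that rose and Adam17, which was not called, thus had ratios of opposite sign. Of the 12 genes of the list with enough reads, 9 had ratios above 0.

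The same shares of all genes apply to each list below. Of 18 genes of receptor trafficking and turnover, 1 was higher and 1 was lower, with a median of 0.27. Sh3kbp1, whose protein CIN85 links CBL to endocytosis, rose from 106 to 284 reads (1.64, interval 1.32 to 1.99). Cblc, a ubiquitin ligase of the CBL family, had 17 and 2 reads (-2.40, interval -6.02 to -0.78). Cbl had 741 and 1271 reads (1.01, interval 0.88 to 1.14), and Lrig1, a membrane protein that promotes receptor turnover, had 2305 and 1835 reads (-0.10, interval -0.19 to -0.01). Downstream, none of the 18 genes of the adaptors and the Ras-ERK cascade was called, with a median of 0.31 and ratios from -0.79 (Gab1) to 0.93 (Gab2). None of the 15 genes of the PI3K, AKT, SRC and STAT arm was called either, with a median of 0.16.

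Of 20 genes that are induced by ERK signaling or feed back on it, 6 were higher and 0 were lower, beside 2.71% and 5.6% of all genes, and the median log2 ratio of the list was 1.05. Ratios above 0 were seen for 15 of the 20 genes. Because this list was chosen with earlier results of these data known, nothing is read from its count against the shares of all genes. Fosl1, which encodes the AP-1 subunit FRA1, rose 4.01-fold from 1510 to 5171 reads (log2 interval 1.92 to 2.09). Dusp5, a phosphatase that acts on nuclear ERK, rose 4.01-fold from 773 to 2648 reads (log2 interval 1.89 to 2.12), and Dusp4, another nuclear phosphatase, rose from 872 to 2231 reads (1.58, interval 1.47 to 1.70). Spry2 and Spry4, inhibitors of receptor tyrosine kinase signaling, rose as well, Spry2 from 432 to 1419 reads (1.94, interval 1.79 to 2.10) and Spry4 from 65 to 162 (1.53, interval 1.12 to 1.99). Fosb had 2 control and 178 senescent reads (6.09, interval 4.83 to 9.76). With total-count scaling 4 genes of the list were higher, since Dusp4 was then at 1.48 and Spry4 at 1.43, and Spry4 also missed the threshold with upper-quartile scaling (1.49) or a prior count of 5 (1.47). Among the genes that were not called, Etv4 was at 1.43, Phlda1 at 1.28, Myc at 1.20, Etv5 at 1.06, Fos at 1.04, Spred2 at 0.85 and Dusp6 at 0.70. The list also held ratios below 0. Egr1 had 1122 and 868 reads (-0.14, interval -0.27 to -0.01), Spry1 had 326 and 183 reads (-0.60, interval -0.87 to -0.34), and Jun had 1938 and 587 reads (-1.49, interval -1.63 to -1.36). Jun lay just short of the threshold and was called lower with total-count (-1.60) or upper-quartile (-1.53) scaling. Errfi1, which is also induced by EGFR signaling, had a ratio of -0.69 beside these genes.

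For comparison, of 20 growth factors outside the EGF family 16 had enough reads, and 0 were higher and 2 were lower, with a median of -0.19. Tgfb3 fell from 643 to 124 reads (-2.14, interval -2.43 to -1.87), and Csf1, the macrophage growth factor, fell from 3186 to 745 reads (-1.87, interval -1.98 to -1.75). The 6 EGF family ligands had a median of 1.89, but they were chosen with their ratios in view, so nothing is read from this difference. Of 28 other receptor tyrosine kinases 17 had enough reads, and 3 were higher and 3 were lower, with a median of -0.04 beside 0.24 for Egfr, Erbb2 and Erbb3. Fgfr2 fell from 7341 to 1061 reads (-2.56), Fgfr3 from 3706 to 306 reads (-3.36) and Epha1 from 334 to 23 reads (-3.58). Epha2 rose from 2547 to 6513 reads (1.58), Flt1 from 223 to 630 reads (1.72) and Csf1r from 15 to 40 reads (1.58). With total-count scaling only Flt1 of these 3 was called higher. Met, the receptor of hepatocyte growth factor and the other main mitogen receptor of hepatocytes, had 9302 and 8043 reads (0.02, interval -0.02 to 0.06). Whether the EGF family differs from these lists was not tested.

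**Figure D5:**
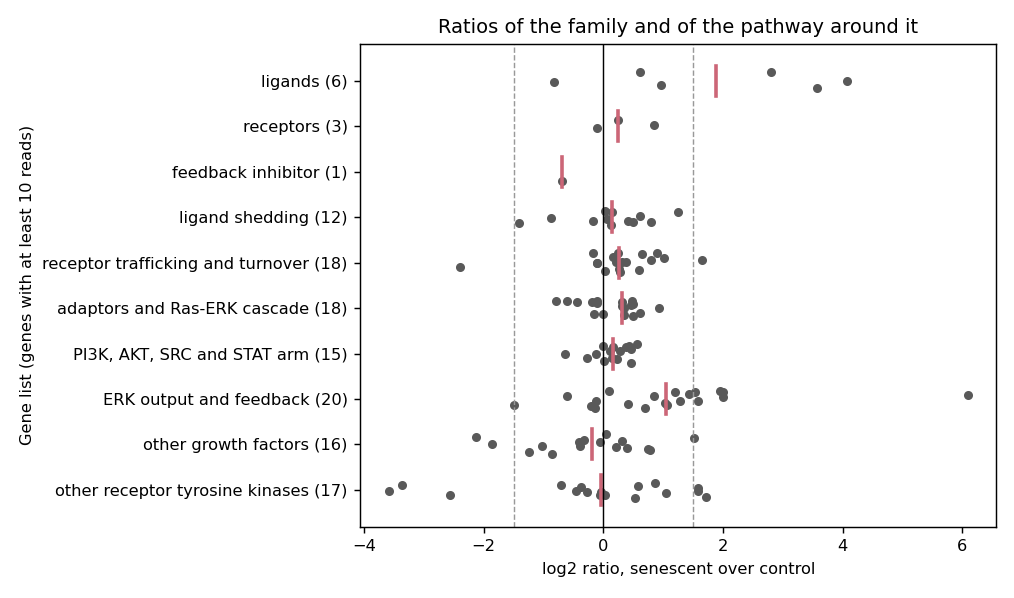
Log2 ratio of senescent over control (horizontal axis) of each gene with at least 10 reads (points) in the EGF family groups and in the lists around them, with the number of genes in parentheses and the median as a red bar. Dashed lines mark 1.5 in either direction, and the medians are 1.89 for the ligands, 0.24 for the receptors, 1.05 for ERK output and feedback, and between -0.19 and 0.31 for the other pathway lists. The members and lists were chosen with earlier results of these data known.

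The genes most like each of the 3 ligands were taken as those with the nearest log2 ratio over the 2 libraries, among genes with at least 100 reads in all and more than 3 in each library. For Areg (4.07) they were Ctse at 4.24, Ifi207 at 4.28 and Emp1 at 3.84. For Btc (3.57) they were Havcr2 at 3.53, Megf10 at 3.49 and Jam2 at 3.48. For Ereg (2.81) they were Gpr137b at 2.83, its near-identical copy Gpr137b-ps at 2.85 and Gja1 at 2.85, where the split of reads between the copies is uncertain. With 2 libraries such likeness holds 1 ratio per gene.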

How the data were processed

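RNAseq was measured in control and senescent AML12 cells with 1 library per condition, each from RNA of 3 pooled samples. Per the labels, libraries were made from poly(A) RNA by random hexamer priming. The authors deposited un-normalized counts of reads per gene by Ensembl identifier. The submitters' processing notes name CASAVA, STAR, DESeq2, edgeR and the build mm10, while the counting tool, the annotation release and the use of strand are not given in the sources used here. Columns were assigned by the initials of the sample titles. GENCODE M21 symbols matched 34490 of 35275 genes (97.8%), and genes without a symbol took 0.113% of control and 0.109% of senescent reads. The members and lists were chosen with earlier results of these data known.

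TMM factors came from edgeR 4.0.16 (R 4.3.3). Ratios, Clopper-Pearson intervals and per-length levels and plots used Python 3.11.15, scipy 1.17.1, numpy 2.4.6, statsmodels 0.14.6, pandas 2.3.3 and matplotlib 3.10.9, after a test on simulated data. Genes with 0 reads in a library are given a bound against a floor of 3 reads, 0.103 CPM (control) or 0.121 CPM (senescent), and no fold where both libraries had 3 or fewer. Intervals and floors cover counting error only, since PCR copies were not marked by molecular identifiers and reads are not all separate molecules. No test could be made without replicate libraries. Named were the members, up to 6 called genes of each list and genes needed to say that they were not called, the neighbours of the ligand cluster, and the 3 genes nearest in ratio to each of Areg, Ereg and Btc. Alternatives were total-count, DESeq2 1.42.0 and upper-quartile scaling, prior counts of 0.125 and 5, minimums of 1 and 100 reads, thresholds of 1 and 2, the longest transcript as length and CPM without length. Subtraction of a trend on GC content or length was added after seeing the data.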

Additional observations from a re-analysis of the deposited data

How the results depend on the processing

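No paired analysis was possible because each condition had 1 library, and for the same reason none could be left out. The calls of Areg, Ereg and Btc and the directions of all 10 members held under each alternative scaling, prior count, read minimum, threshold and trend that was run for them, and no called value changed sign. With total-count scaling, which moved the median of all genes by -0.11, the log2 ratios were 0.86 for Tgfa, 0.14 for Egfr, -0.22 for Erbb2 and -0.79 for Errfi1, and with the length trend subtracted Egfr was 0.16. Of all genes, 1.80% were called higher with a prior count of 5, 1.25% with at least 100 reads, 5.09% at a threshold of 1 and 1.52% at 2. Called lower were 3.50% with at least 100 reads, 9.98% at a threshold of 1 and 3.20% at 2. At a threshold of 1, the called genes were 1 higher and 1 lower for shedding and 2 higher and 1 lower for receptor turnover. ERK output had 11 higher and 1 lower, and other receptor tyrosine kinases had 3 higher and 3 lower. Other growth factors had 4 lower and metallothioneins 1 lower. At a threshold of 2, the called genes were 0 higher and 1 lower for receptor turnover and 3 higher for ERK output. Other growth factors had 1 lower, and other receptor tyrosine kinases had 0 higher and 3 lower. With total-count scaling 1 shedding gene, 1 ERK output gene and 1 metallothionein gene were lower and 1 other receptor tyrosine kinase was higher, and with upper-quartile scaling 1 ERK output gene was lower. With at least 1 read, 1 other ErbB family gene was higher, and with at least 100 reads 0 genes of receptor turnover were lower. With the longest transcript as length, the summed levels were 40.7 and 156 RPKM for the ligands and 32.2 and 33.9 RPKM for the receptors in control and senescent cells. Length decides the order of some levels. As CPM without length, senescent Areg (65.7) was below Tgfa (199), and control Egfr (155) was above Erbb2 (84.2). The median of the other receptor tyrosine kinases was 0.55 in place of -0.04 with at least 1 read. The depth limits Egf and Erbb3, which had under 100 reads, and Epgn, Nrg2, Nrg3 and Erbb4, which had under 10 reads.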
